A study of Mus musculus with 19 samples.

Results

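The 42 genes described here encode the machinery that copies DNA in S phase, with the enzymes that supply its nucleotides. They were taken by gene symbol from the RNA-seq tables of a mouse retina study of Pou3f1, a POU family transcription factor. All 42 members were listed once, with an adjusted p, in each of 3 tables, which together list 35734 gene identifiers. Replication starts when the origin recognition complex, with Cdc6 and Cdt1, loads the MCM helicase onto DNA. Cdc45 and the GINS complex then switch the helicase on, primase and the replicative polymerases copy the strands, and the PCNA clamp holds the polymerases in place. In the retina many of these genes mark dividing progenitor cells, which leave the cell cycle as they become neurons or Müller glia.

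The study comprised 19 libraries in 6 groups. In the overexpression experiment, eyes of wild-type CD1 pups were electroporated on postnatal day 1 with plasmid DNA of a Gfp control or of Pou3f1, and fluorescent cells were sorted and pooled to about 150000 cells per replicate. These groups held 3 Gfp and 3 Pou3f1 libraries at 48 h, and 4 Gfp and 5 Pou3f1 libraries at 14 days. In the loss-of-function experiment, whole C57B6J retinas at E17.5 were compared between 2 libraries of Pou3f1 heterozygotes and 2 of homozygous knockouts, so that the controls of this comparison carry 1 mutant allele as well. Neither the promoter of the plasmids nor the design of the knockout allele is stated in the labels. The labels place the late collection 14 days after electroporation, while the protocol gives postnatal day 14, and the name of the knockout table gives an earlier embryonic day than its sample labels.

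Each table is 1 comparison made by the authors, with a log2 fold change and a p-value per gene and no values per library, so the spread between single libraries cannot be shown. Rises and falls below are those with an adjusted p, from the authors, under 0.05. Log2 fold changes of the overexpression tables carry a standard error (SE), and the E17.5 table gives none. The direction of each table was read from Pou3f1 itself. Pou3f1 had a log2 fold change of 0.91 ± 0.26 at 48 h and 5.57 ± 0.27 at 14 days (adjusted p = 0.0233 and 3.40e-88 in the authors' deposited tables). Read as knockout over heterozygote, Pou3f1 was at -0.69 at E17.5 (adjusted p = 1.98e-08 in the authors' deposited table), and every E17.5 direction below rests on that reading. Mean normalized counts summed to 16020842 at 48 h and 38507471 at 14 days, and the depth of single libraries is unknown. Rod markers held 6.60% of the 14 day total, whereas 3 of 12 rod markers had an adjusted p at 48 h and 4 of 12 at E17.5. The labels do not name separate animals for each library, so the p-values measure the spread between these samples, which may be technical.

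DNA replication genes were higher in the knockout retina at E17.5. Of the 42 members, 28 rose, 0 fell and 14 did not pass, and all 42 log2 fold changes were positive in the authors' deposited table, from 0.09 for Dnmt1 to 0.50 for Rpa3. The median was 0.29, or 1.22-fold, against 0.0035 over all 14821 genes tested. Of those genes, 50.8% had a positive value. Over all genes tested, 4.70% were called higher and 5.34% lower. Among the 11033 genes whose 48 h mean counts lay in the range of the members, 4.58% were called higher, 5.82% lower and 10.4% in either direction. The changes were small, and 0 of the 28 reached 1.5-fold. With trends with GC content and transcript length removed, an alternative chosen after seeing the data, Rpa3 went from 0.50 to 0.32, Rfc4 from 0.36 to 0.23, Gins1 from 0.32 to 0.21 and Gins4 from 0.27 to 0.18, and Tyms was then the highest of the 34 members recomputed singly, at 0.43.

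Of the Mcm genes, Mcm2, Mcm3, Mcm4, Mcm5 and Mcm6 rose, by 0.28, 0.34, 0.31, 0.32 and 0.31 on the log2 scale (adjusted p from 2.79e-07 to 0.00114 in the authors' deposited table). These genes encode subunits of the replicative helicase. Mcm7, the remaining subunit, stood at 0.16 and did not pass (adjusted p = 0.101 in the authors' deposited table). Among the factors that turn the loaded helicase on, 5 of 6 rose. They were Gins1 (0.32), Gins2 (0.34), Gins4 (0.27), Cdc45 (0.27) and Mcm10 (0.26) (adjusted p from 0.00377 to 0.0422 in the authors' deposited table). Gins3 was the exception, at 0.16 (adjusted p = 0.291 in the authors' deposited table).

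The loading step upstream showed fewer calls. Cdc6, the ATPase that brings the helicase to the origin, was the 1 of 5 origin and licensing genes that rose, at 0.31 (adjusted p = 0.00423 in the authors' deposited table). Its partner in loading, Cdt1, had 0.15, and the origin recognition subunits Orc1, Orc2 and Orc6 had 0.28, 0.21 and 0.14 (adjusted p from 0.0720 to 0.493 in the authors' deposited table). All 5 values of this step were positive.

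Clamp and clamp loader genes had a median of 0.35 and single-strand binding genes one of 0.32. Pcna, the sliding clamp, rose by 0.46 (adjusted p = 8.58e-06 in the authors' deposited table). Of the clamp loader subunits, Rfc1, Rfc3, Rfc4 and Rfc5 rose, by 0.28, 0.45, 0.36 and 0.33 (adjusted p from 1.17e-05 to 0.0340 in the authors' deposited table). Rfc2 had 0.22 and did not pass (adjusted p = 0.104 in the authors' deposited table). Single-strand DNA is coated by the RPA trimer, and its genes Rpa1 (0.31), Rpa2 (0.32) and Rpa3 (0.50) all rose (adjusted p from 0.000189 to 0.000510 in the authors' deposited table). The flap nuclease gene Fen1 and the ligase gene Lig1, which join Okazaki fragments, rose by 0.28 and 0.32 (adjusted p = 0.000383 and 1.48e-05 in the authors' deposited table).

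Of the 8 polymerase and primase genes, 3 rose. Both primase genes rose, Prim1 by 0.32 and Prim2 by 0.34 (adjusted p = 0.0121 and 0.00385 in the authors' deposited table). Pole2, an accessory subunit of the leading-strand polymerase epsilon, rose by 0.29 (adjusted p = 0.0339 in the authors' deposited table). The catalytic subunit genes Pola1, Pold1 and Pole, with the delta subunits Pold2 and Pold3, ranged from 0.10 to 0.16 and did not pass (adjusted p from 0.297 to 0.434 in the authors' deposited table). All 8 values of this class were positive, and whether the called genes differ from the others was not tested.

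Enzymes that make deoxynucleotides rose in 3 of 4 cases. Tyms, thymidylate synthase, rose by 0.43, Rrm2, the regulated subunit of ribonucleotide reductase, by 0.29, and Tk1, thymidine kinase, by 0.30 (adjusted p from 2.47e-06 to 0.0234 in the authors' deposited table). Rrm1, the large reductase subunit, had 0.16 (adjusted p = 0.0787 in the authors' deposited table). Uhrf1, which reads hemimethylated DNA behind the fork, rose by 0.23, while Dnmt1, the methyltransferase it recruits, had the lowest value of the 42, at 0.09 (adjusted p = 0.0247 and 0.417 in the authors' deposited table). Around the threshold, Mcm10 was the member just inside (adjusted p = 0.0422) and Orc2 the member just outside (adjusted p = 0.0720) in the authors' deposited table.

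**Figure D1:**
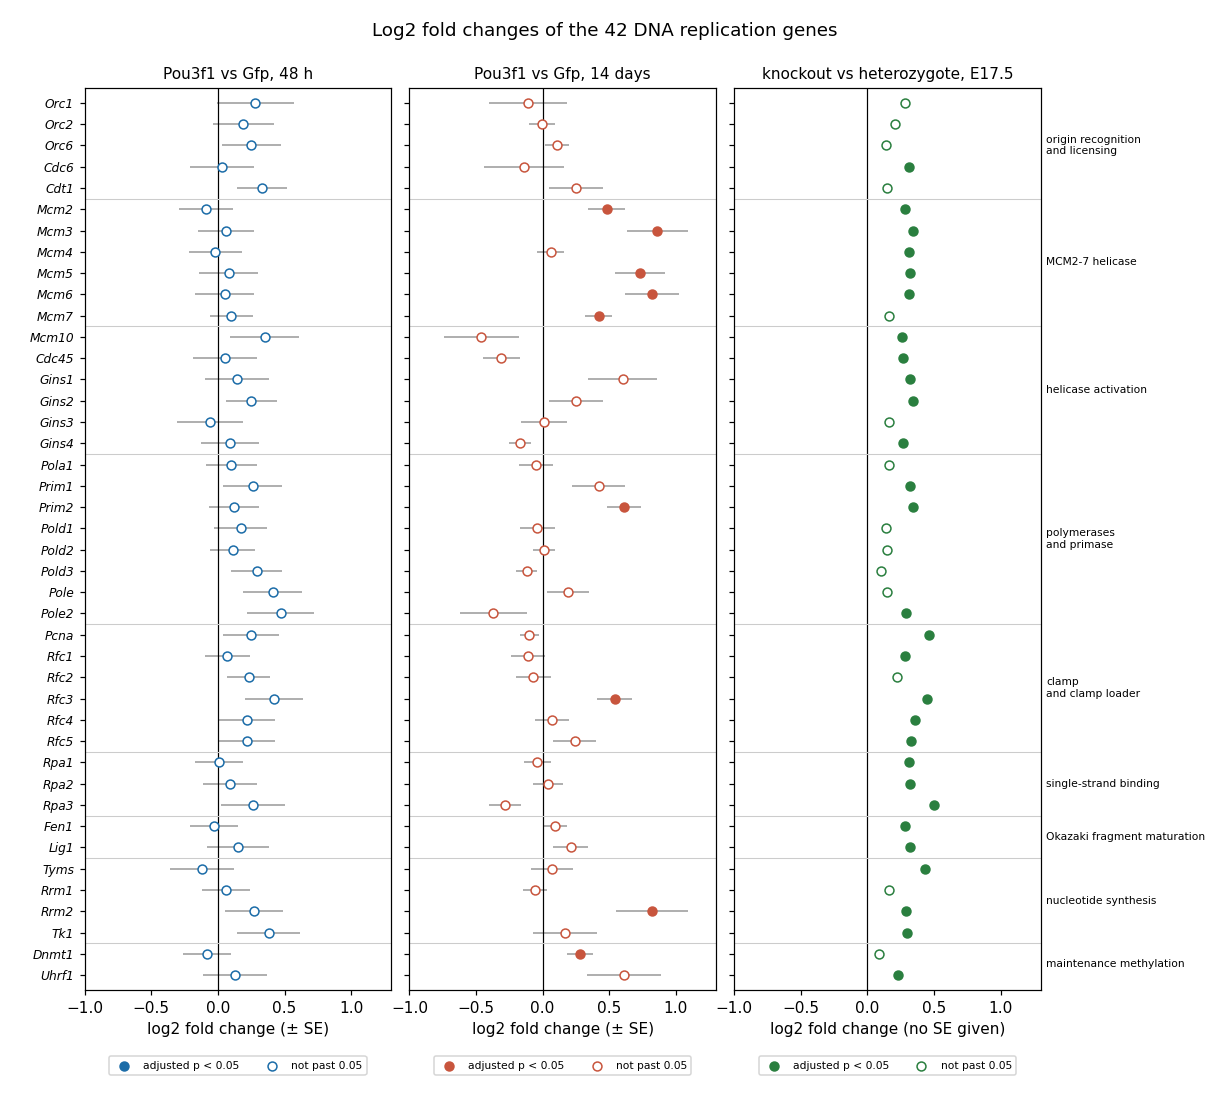
Log2 fold change of each of the 42 members (rows, grouped by role) in the 3 comparisons, with bars of ± SE where the table gives one; filled points have an adjusted p under 0.05. All 42 points lie right of 0 at E17.5, 9 filled points lie right of 0 at 14 days, 5 of them Mcm genes, and no point is filled at 48 h.

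Genes of the same pathway outside the members were also higher in the knockout. Of 53 other replication genes, 20 rose, 0 fell and 33 did not pass, with a median log2 fold change of 0.23. Gmnn (geminin, which restrains Cdt1) rose by 0.50, Chaf1b (chromatin assembly behind the fork) by 0.45 and Cdca7 by 0.38 (adjusted p from 2.85e-07 to 6.53e-06 in the authors' deposited table). Regulators of the step from G1 to S included 10 that rose and 1 that fell of 30, with a median of 0.16. They were led by the D cyclin gene Ccnd3 (0.36), the E cyclin gene Ccne2 (0.50), Mybl2 (0.34) and Skp2 (0.29) (adjusted p from 5.23e-05 to 0.00704 in the authors' deposited table).

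Mitosis genes did not carry the same counts. Of 30 mitosis genes, 1 rose, 1 fell and 28 did not pass at E17.5, with a median of 0.03. Mad2l1, a spindle checkpoint gene, rose by 0.31, and Mki67, which encodes the proliferation marker Ki-67, fell, with a value of -0.31 (adjusted p = 0.00163 and 0.0199 in the authors' deposited table). Whether the 2 lists differ was not tested as such, since the replication genes were chosen with earlier results known.

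Markers of cell types moved beside these genes at E17.5. Of 13 neurogenic progenitor genes, 1 rose and 6 fell (median -0.19), and of 19 retinal progenitor genes 2 rose and 2 fell (median -0.02). Sfrp2, a secreted Wnt modulator of retinal progenitors, had the highest value of the progenitor list at 0.96 (adjusted p = 9.28e-39 in the authors' deposited table). Müller glia markers held 0 that rose and 4 that fell of 10, blood vessel markers 0 and 3 of 12, and microglia markers 0 and 1 of 15. The part of these markers in the result was not tested. In whole retina, more cells in S phase and more RNA per cell cannot be told apart.

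**Figure D2:**
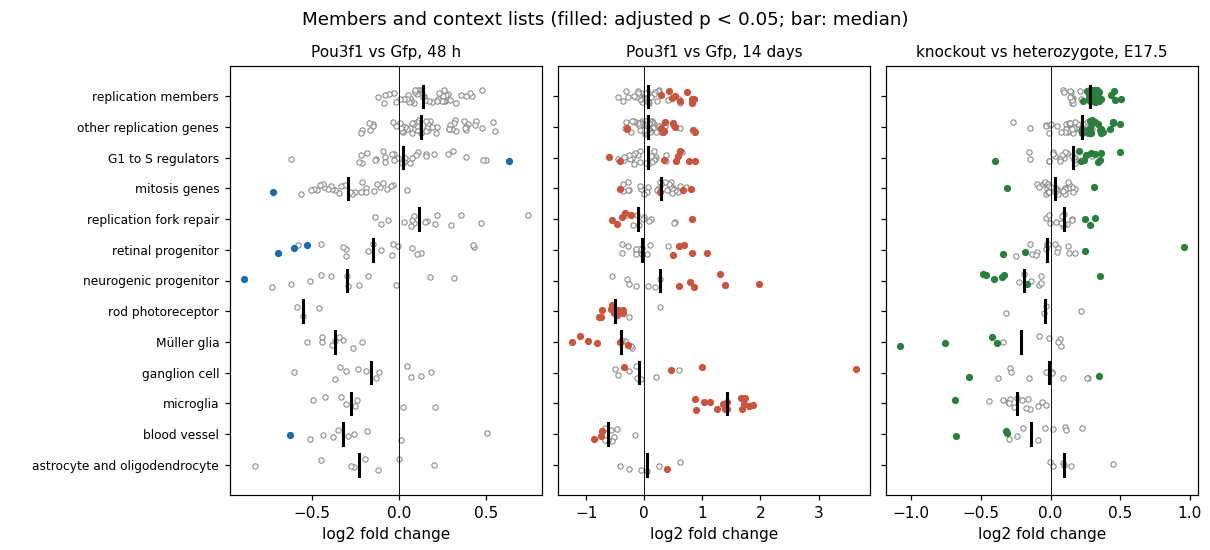
Log2 fold change of each tested gene of the 42 members and of 12 context lists (rows) in the 3 comparisons; filled points have an adjusted p under 0.05 and black bars are list medians. The members and the other replication genes sit right of 0 at E17.5 (medians 0.29 and 0.23), mitosis genes sit left of 0 at 48 h (median -0.30), and microglia markers sit right of 0 at 14 days (median 1.42).

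At 14 days, genes of the Mcm helicase were higher with added Pou3f1. Of the 42 members, 9 rose, 0 fell and 33 did not pass, and 5 of the 9 encode helicase subunits. The median over the members was 0.07, against -0.01 over all 17789 genes tested, and 11.5% of all genes were called higher and 9.21% lower. In either direction 20.7% were called. The 9 calls among the 42 members lie near that share, and all 9 were rises. Among the 13811 genes in the members' range of mean counts, 13.3% were called higher, 9.83% lower and 23.2% in either direction. Of the 6 genes Mcm2 to Mcm7, 5 rose.

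Mcm3 was 1.82-fold higher (log2 fold change 0.86 ± 0.23, mean count 144) (adjusted p = 0.00189 in the authors' deposited table). Mcm6 followed at 0.82 ± 0.20 (mean count 419) (adjusted p = 0.000802 in the authors' deposited table). The values were 0.73 ± 0.19 for Mcm5, 0.48 ± 0.14 for Mcm2 and 0.42 ± 0.10 for Mcm7 (adjusted p from 0.000552 to 0.00761 in the authors' deposited table). Mcm4 did not pass and stood at 0.06 ± 0.10, with a 95% interval from -0.12 to 0.25 (adjusted p = 0.697 in the authors' deposited table). That interval overlaps those of Mcm2 (0.20 to 0.76) and Mcm7 (0.23 to 0.62). It lies below those of Mcm3, Mcm5 and Mcm6, whose lower ends were 0.42, 0.36 and 0.43. The difference between Mcm4 and its partners was not tested.

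The other 4 rises came from different steps. Over the members outside the helicase, that number lies near the 11.5% of all genes called higher, so it is no result about these steps. Prim2, the large primase subunit gene, had the smallest adjusted p of the members, with 0.61 ± 0.13 (adjusted p = 7.57e-05 in the authors' deposited table). Rfc3 had 0.54 ± 0.13, Rrm2 0.82 ± 0.27 and Dnmt1 0.28 ± 0.10 (adjusted p from 0.000617 to 0.0213 in the authors' deposited table). Uhrf1 and Gins1 had values of similar size, 0.61 ± 0.28 and 0.60 ± 0.26, at mean counts of 73.9 and 32.8, and did not pass (adjusted p = 0.111 and 0.0909 in the authors' deposited table).

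Of the factors that activate the helicase, 0 of 6 passed. Mcm10 had -0.46 ± 0.28, Cdc45 -0.31 ± 0.14 and Gins4 -0.17 ± 0.08 (adjusted p from 0.102 to 0.247 in the authors' deposited table). The other 3 were positive, with Gins1 at 0.60 ± 0.26, Gins2 at 0.25 ± 0.20 and Gins3 at 0.01 ± 0.17 (adjusted p from 0.0909 to 0.986 in the authors' deposited table). The origin and licensing genes had a median of -0.0045 with 0 of 5 called, and the single-strand binding genes a median of -0.04 with 0 of 3 called. Pcna (mean count 2565) had -0.10 ± 0.07, and Rpa3 -0.28 ± 0.12 (adjusted p = 0.352 and 0.0662 in the authors' deposited table). Around the threshold, Dnmt1 (adjusted p = 0.0213) was the member just inside and Rpa3 the member just outside. With trends with GC content and transcript length removed, Rpa3 was at -0.04.

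Pathway genes outside the members gave 8 rises and 2 falls of 53, with a median of 0.07. Nasp, a histone chaperone, had 0.52 ± 0.12, Tipin, a fork protection factor, 0.50 ± 0.13, Cdca7 0.87 ± 0.25 and Ssrp1, a subunit of the FACT chaperone, 0.29 ± 0.08 (adjusted p from 0.000513 to 0.00524 in the authors' deposited table). Of 31 G1 to S regulators 6 rose and 2 fell, with a median of 0.06. Among them Cdk4 (0.88 ± 0.16) and Ccnd1 (0.76 ± 0.21), which form a kinase complex that starts the cycle, rose, while Ccnd3 (-0.41 ± 0.10) and E2f6 (-0.61 ± 0.16) fell (adjusted p from 1.15e-06 to 0.00431 in the authors' deposited table). Of 30 mitosis genes 3 rose and 1 fell, with a median of 0.28. Of all genes tested, 11.5% were called higher and 9.21% lower. The rises among the mitosis genes and the 53 pathway genes lie near the first share, and these lists were not tested against it. Ccnb1, the mitotic B cyclin gene, had 0.80 ± 0.25 (mean count 41.7) (adjusted p = 0.00978 in the authors' deposited table).

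Other cell markers moved strongly at 14 days. All 15 microglia markers rose (median 1.42, range 0.87 to 1.87), led by the complement gene C1qc at 1.87 ± 0.24 (adjusted p = 1.00e-12 in the authors' deposited table). The lowest mean count among them was 39.1, the table gives no level per group, and their mean counts summed to 0.00978% of the total, against 0.00695% for the 6 helicase genes. Neurogenic progenitor markers rose in 6 of 13 cases, and retinal progenitor markers rose in 5 of 19. Rod markers fell in 10 of 12 cases and Müller glia markers in 6 of 10. The part of any of these markers in the helicase result was not tested. In pooled cells, more dividing cells and more RNA per cell cannot be told apart.

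At 48 h no member passed. Of the 42 members, 0 rose and 0 fell by the authors' DESeq2 test, and 0 had an unadjusted p under 0.05 in either direction. At that unadjusted threshold, 6.29% of all genes tested were higher and 8.46% lower. Over all 14714 genes tested, 3.04% were called, 1.48% higher and 1.56% lower. Among the 11084 genes in the members' range of mean counts, 3.18% were called, 1.43% higher and 1.75% lower. The median of the members was 0.14, against -0.01 over all genes, and 36 of the 42 values were positive. Of all genes tested at 48 h, 49.1% had a positive value. The 48 h table resolves less, with a median SE of the members of 0.216, compared with 0.132 for 14 days.

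Values at 48 h ran from -0.12 ± 0.24 for Tyms to 0.47 ± 0.25 for Pole2 (adjusted p = 0.885 and 0.375 in the authors' deposited table). Polymerase and primase genes had positive values in 8 of 8 cases and clamp and clamp loader genes in 6 of 6, with medians of 0.22 and 0.23. The helicase genes lay near 0, from -0.09 ± 0.20 for Mcm2 to 0.10 ± 0.16 for Mcm7 (adjusted p = 0.906 and 0.845 in the authors' deposited table). The 95% interval of Mcm3 at 48 h reached from -0.36 to 0.47 and that of Mcm6 from -0.39 to 0.48.

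Mitosis genes stood on the other side of 0. Of 30, 1 fell, against 1.56% of all genes called lower, and 29 of 30 values were negative, with a median of -0.30. By the authors' DESeq2 test, 9 of the 30 (30.0%) were lower at an unadjusted p under 0.05 and 0 were higher. Of all genes tested, 8.46% were lower at that threshold. Whether the list differs from all genes was not tested. Cenpf, a kinetochore gene, fell by 0.72 ± 0.17 on the log2 scale (adjusted p = 0.00230 in the authors' deposited table). Of 53 other replication genes 0 passed, 45 values were positive, and 4 had an unadjusted p under 0.05, all 4 higher. These 4 are 7.55% of the list, near the 6.29% of all genes that were higher at that threshold. Cdkn1c, which encodes an inhibitor of G1 kinases, was the 1 regulator of 30 that rose, at 0.63 ± 0.17 (adjusted p = 0.00891 in the authors' deposited table). Beside them, retinal progenitor markers held 3 falls of 19, led by Cdon at -0.69 ± 0.14 (adjusted p = 0.000238 in the authors' deposited table), and Atoh7, needed for the ganglion cell fate, had -0.89 ± 0.25 (adjusted p = 0.0160 in the authors' deposited table). The part of these markers was not tested.

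**Figure D3:**
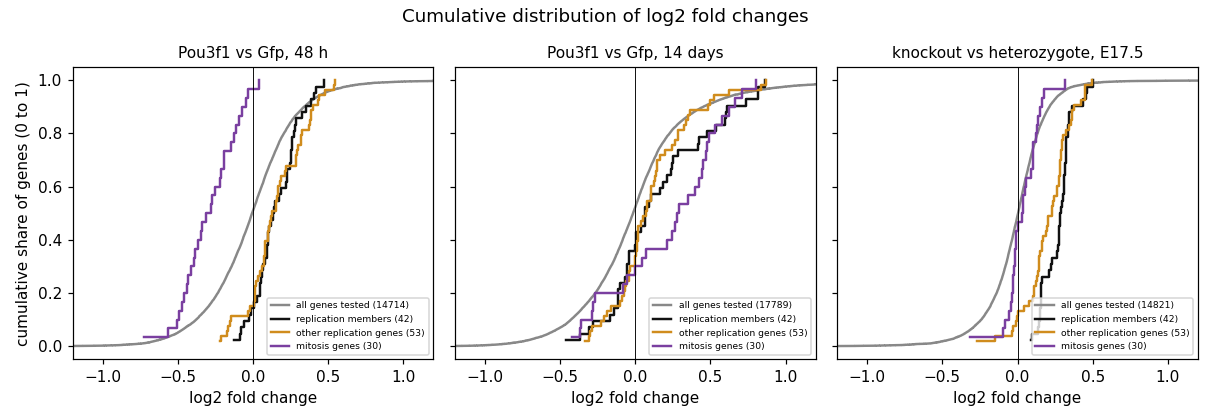
Cumulative share of genes (0 to 1) against log2 fold change for all genes tested, the 42 members, 53 other replication genes and 30 mitosis genes in each comparison. At 48 h the mitosis curve lies left of the grey curve of all genes (medians -0.30 and -0.01) and the replication curves right of it; at E17.5 the replication curves are shifted right while the mitosis curve stays near 0 (median 0.03).

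Between the overexpression tables, the effect on each member was compared by a two-sided z test on the difference of the 2 log2 fold changes, with Benjamini-Hochberg adjustment over 14580 genes. None of the 42 members passed, while 6.14% of all genes did, 4.48% higher and 1.66% lower at 14 days. At an unadjusted p under 0.05, 5 members were higher and 4 lower at 14 days than at 48 h. The share of all genes at that unadjusted threshold was not counted, so these numbers have no background to be read against. Mcm3 differed by 0.80 ± 0.31 (95% interval 0.20 to 1.41, adjusted p = 0.0985) and Mcm6 by 0.77 ± 0.30 (interval 0.18 to 1.36, adjusted p = 0.104). The largest shift downward was that of Pole2, by -0.84 ± 0.35 (adjusted p = 0.141). Whether the rise of the helicase genes is particular to the later time is therefore not shown. Fold changes of both comparisons may also be shrunken toward 0, which would affect this test and all 95% intervals by an unknown amount.

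The members were far less abundant in the later table. Their mean counts made up 0.384% of all normalized counts at 48 h and 0.0860% at 14 days, and 41 of the 42 members had a lower share at 14 days. The tables were normalized separately and pool Gfp and Pou3f1 cells, so these shares describe levels and were not tested. Rrm2 had mean counts of 2904 and 58.9 in the authors' deposited tables, a share 119 times lower. Uhrf1 went from 3076 to 73.9 and Cdc6 from 498 to 24.5 in the authors' deposited tables. Rpa1, which also serves DNA repair, was the exception, at 1866 and 7858 in the authors' deposited tables. Pcna had 4689 and 2565 and Dnmt1 3974 and 3612 in the authors' deposited tables, shares 4.39 and 2.64 times lower at 14 days.

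**Figure D4:**
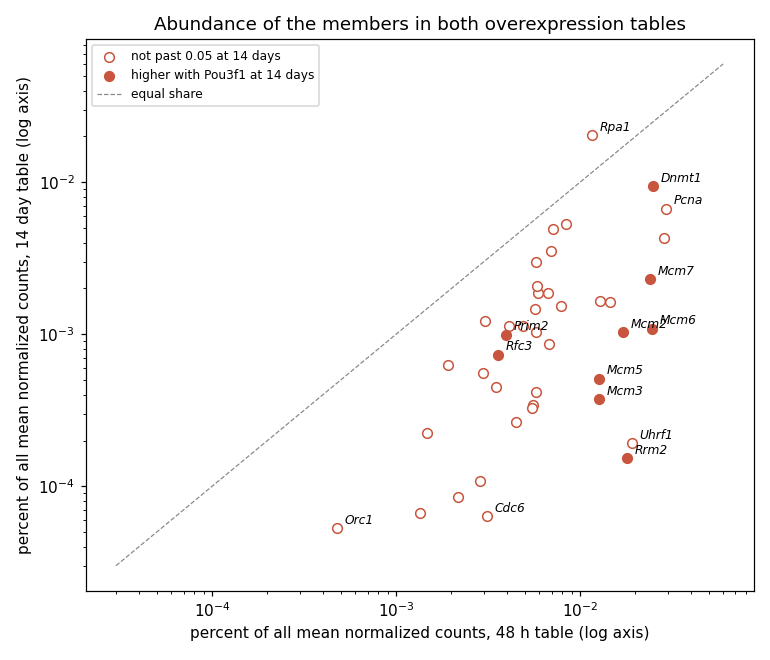
Share of each member in all mean normalized counts at 48 h (horizontal, percent, log axis) and at 14 days (vertical, percent, log axis), with a dashed line of equal share; filled points rose with Pou3f1 at 14 days. All members but Rpa1 lie below the line, and Rrm2, Uhrf1 and Cdc6 lie farthest below it.

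The E17.5 and 14 day comparisons share no library. Mcm2, Mcm3, Mcm5, Mcm6, Prim2, Rfc3 and Rrm2 rose in both, which is 77.8% of the 9 that rose at 14 days and 25.0% of the 28 that rose at E17.5. As 28 of all 42 members rose at E17.5, a large overlap follows from that share, and it rests on the direction read for that table. The members highest at E17.5, Rpa3, Pcna, Rfc3 and Tyms, stood at -0.28, -0.10, 0.54 and 0.07 at 14 days in the authors' deposited table, and Rpa3 moved to -0.04 with the GC and length trends removed. The ages, cells and strains of both comparisons differ, and the difference between them was not tested.

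**Figure D5:**
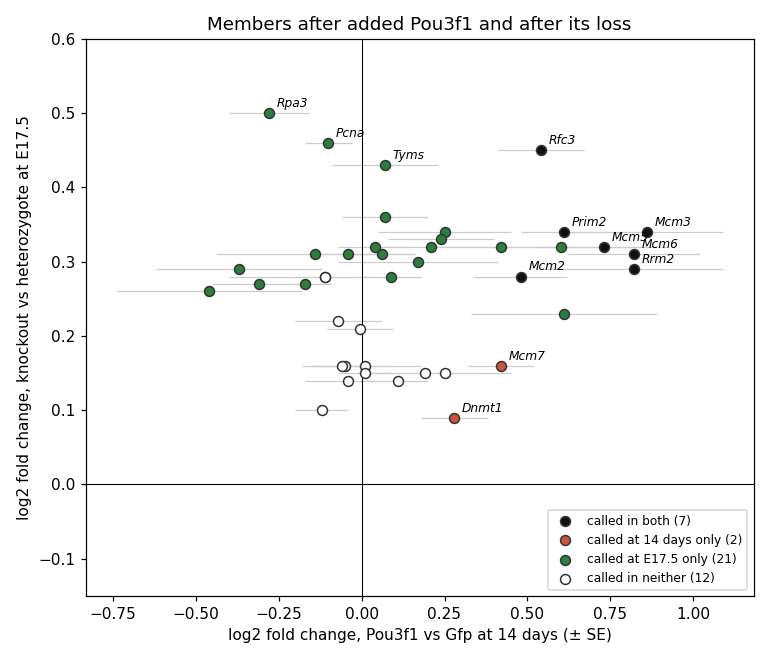
Log2 fold change of each member at 14 days (horizontal, ± SE) and at E17.5 (vertical, no SE given), coloured by the comparison in which its adjusted p was under 0.05. The 7 members called in both lie at the right (0.48 to 0.86 at 14 days), and Rpa3, Pcna, Rfc3 and Tyms lie highest.

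Promoters are shown for 5 of the 7 genes that rose in both comparisons. The windows run from 250 bases before to 50 bases after the RefSeq start of the gene in GRCm38.p6, the assembly that mm10 denotes, and matched 35 of the 42 members. They were searched on both strands for the E2F motif, as TTTCCCGC, TTTCGCGC, TTTGCCGC or TTTGGCGC, for the CCAAT box and for the POU octamer ATGCAAAT. E2F factors are known to drive S phase genes. Capitals mark E2F and CCAAT matches in either orientation, E2F matches that overlap each other were counted once, and none overlaps a CCAAT box in these windows. The windows lie at chr1:20820263-20820562 (minus strand) for Mcm3, chr8:75109259-75109558 (plus strand) for Mcm5, chr1:128359656-128359955 (minus strand) for Mcm6, chr5:151651159-151651458 (minus strand) for Rfc3 and chr6:88898731-88899030 (minus strand) for Mcm2.
Mcm3: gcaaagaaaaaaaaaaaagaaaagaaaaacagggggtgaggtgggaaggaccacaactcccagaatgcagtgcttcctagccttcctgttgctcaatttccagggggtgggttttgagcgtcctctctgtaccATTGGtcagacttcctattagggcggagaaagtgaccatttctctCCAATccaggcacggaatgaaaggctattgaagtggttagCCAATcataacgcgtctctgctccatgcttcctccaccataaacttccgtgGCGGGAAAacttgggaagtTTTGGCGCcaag
Mcm5: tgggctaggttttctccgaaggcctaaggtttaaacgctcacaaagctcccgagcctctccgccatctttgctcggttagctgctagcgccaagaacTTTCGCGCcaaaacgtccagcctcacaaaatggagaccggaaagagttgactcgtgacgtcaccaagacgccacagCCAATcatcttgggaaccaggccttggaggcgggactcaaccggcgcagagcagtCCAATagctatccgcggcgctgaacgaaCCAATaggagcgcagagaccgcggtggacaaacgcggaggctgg
Mcm6: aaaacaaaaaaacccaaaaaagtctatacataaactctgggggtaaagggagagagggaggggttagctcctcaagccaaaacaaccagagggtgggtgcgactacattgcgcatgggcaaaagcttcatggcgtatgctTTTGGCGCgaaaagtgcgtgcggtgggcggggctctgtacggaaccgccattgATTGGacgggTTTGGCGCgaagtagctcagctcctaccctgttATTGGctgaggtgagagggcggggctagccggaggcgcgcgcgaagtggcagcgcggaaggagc
Rfc3: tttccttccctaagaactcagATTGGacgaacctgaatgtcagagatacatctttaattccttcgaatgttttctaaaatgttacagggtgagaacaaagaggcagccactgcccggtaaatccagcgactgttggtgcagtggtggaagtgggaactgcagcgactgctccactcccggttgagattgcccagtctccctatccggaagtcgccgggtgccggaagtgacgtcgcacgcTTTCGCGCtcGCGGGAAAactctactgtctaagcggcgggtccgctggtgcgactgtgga
Mcm2: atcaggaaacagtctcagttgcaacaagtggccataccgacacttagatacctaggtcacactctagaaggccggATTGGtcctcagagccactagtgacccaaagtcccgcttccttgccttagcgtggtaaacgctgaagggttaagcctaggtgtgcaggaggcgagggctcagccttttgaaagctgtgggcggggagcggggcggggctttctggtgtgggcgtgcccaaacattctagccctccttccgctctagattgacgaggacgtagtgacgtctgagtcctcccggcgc

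Mcm3, Mcm6 and Rfc3 each hold 2 E2F matches and Mcm5 holds 1, while Mcm2 holds none and has 1 CCAAT box. Rrm2 and Prim2, which also rose in both comparisons, are not shown and were not among the 16 member genes with an E2F match. The 5 windows shown therefore do not stand for all 7 genes. An E2F match was present in 16 of the 44 member windows (36.4%), against 2.26% of all 32851 windows. The CCAAT box was present in 63.6% and 37.4%, and the octamer in 0 of 44 and 1.74%. Among the 35 member genes with a window, 8 of the 16 with an E2F match rose at E17.5 and 15 of the 19 without one. Their median log2 fold changes were 0.25 and 0.29. A match describes letters in a window and shows neither binding nor a cause.

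Some members share sequence with other genes, which bears on how reads were assigned. Exons of 7 members overlap another gene by at least 10% of their exonic bases, led by Fen1 (78.8%, an antisense RNA) and Gins2 (67.3%, Gse1 on the opposite strand). The labels do not state whether counting used strand, so reads of these partners cannot be told apart. Without these 7 genes, 24 of 35 rose at E17.5. Processed pseudogenes with at least 90% identity over at least 300 bases exist for 8 members, namely Mcm7, Mcm4, Pcna, Tyms, Cdc6, Rfc5, Uhrf1 and Rrm2. The copies' own mean counts were at most 1.97 at 48 h and 4.93 at 14 days where listed, both for Pcna-ps2, and reads assigned wrongly cannot be seen in such counts. Without these 8 members 21 of 34 rose at E17.5 and 7 at 14 days.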

How the data were processed

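The members, lists and tests were chosen with earlier results of these data known. Salmon, DESeq2 and the mm10 build are named in the submitters' processing notes. Their versions, the annotation and the fitted design are not stated there. Log2 fold changes, their SE and the p-values (raw and adjusted) were deposited by the authors. The Wald score was deposited by the authors in the overexpression tables and equals the fold change over its SE (largest difference 4.45e-07). The signal used as mean normalized count was also deposited by the authors there. Recomputed Benjamini-Hochberg values differed from the deposited adjusted p by at most 5.60e-06 over genes with one. No SE exceeded 0.297, also for genes with few counts, so fold changes may be shrunken toward 0.

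From the tables were computed counts of calls (adjusted p under 0.05), medians and 95% normal intervals from the SE, and a two-sided z test of the difference between 14 days and 48 h. Members were all named. Outside them, Pou3f1 and up to 4 called genes per list with the smallest adjusted p could be named, and some of these are not reported here. Loci come from GENCODE M21, and pseudogenes were found with BLAST 2.17.0. The promoter windows use RefSeq starts, which can differ from these loci. The Mcm5 window ends before the GENCODE start of that gene, at base 75109569. The software was matplotlib 3.10.9 and scipy 1.17.1 with numpy 2.4.6 and pandas 2.3.3 under Python 3.11.15.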

Additional observations from a re-analysis of the deposited data

How the results depend on the processing

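No paired analysis was possible because the tables hold no values per library, and for the same reason no replicate could be left out. At E17.5 the number of members that rose stayed between 20 and 30 under an adjusted p of 0.01 or 0.1, adjustment over all genes with a p-value and the 2 reductions of the list. Centring on the median of all genes and removal of trends with GC content and transcript length keep the deposited p-values, so they test values and not these counts. Of 34 members recomputed singly at E17.5, Rpa3, Rfc4 and Gins1 moved by over 1.5 times with the trends removed, as did Rpa3 at 14 days. Gins4, from 0.27 to 0.18 at E17.5, stood at that limit. With a 1.5-fold limit the number that rose at E17.5 was 0, because every change is smaller. An unadjusted p under 0.05 was held by 33 members (78.6%), all higher. Over all genes tested at E17.5, 10.5% were higher and 10.7% lower at that threshold. At 14 days the number that rose was 5 with a 1.5-fold limit and 7 to 10 otherwise, and 1 fell at an adjusted p under 0.1. At 48 h it was 0 in both directions with an adjusted p of 0.01 or 0.1, adjustment over all genes with a p-value or a mean count of at least 10. The members' median ranged from 0.26 to 0.29 at E17.5, 0.05 to 0.08 at 14 days and 0.13 to 0.14 at 48 h. No member differed between 14 days and 48 h under the 4 alternatives (smallest adjusted p from 0.0923 to 0.122). The threshold of 0.01 was 1 of these 4 and could not have added a call. The GC, length, exon and pseudogene alternatives were chosen after seeing the data. The SE at 48 h limits what that table can show. The measured contrast in Pou3f1 was also smaller there, 1.87-fold against 47.6-fold at 14 days, and the reason was not tested.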

Other observations

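Of 16 genes that repair replication forks, 1 rose and 5 fell at 14 days, with a median log2 fold change of -0.11. Brca2 had -0.48 ± 0.13 and Rmi1 -0.32 ± 0.08, while Bard1, the partner of Brca1, had 0.82 ± 0.23 (adjusted p from 0.00101 to 0.00348 in the authors' deposited table). At E17.5 3 of the 16 rose and 0 fell, among them the checkpoint kinase gene Chek1 (0.32) and Rad54l (0.24) (adjusted p from 0.00131 to 0.0185 in the authors' deposited table). Of all genes tested, 11.5% were called higher and 9.21% lower at 14 days, and 4.70% and 5.34% at E17.5. Whether the list differs from all genes, or the 2 comparisons from each other, was not tested.

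Ccnd3 and Mad2l1 were called in both comparisons with opposite signs. Ccnd3 had -0.41 ± 0.10 at 14 days and 0.36 at E17.5, and Mad2l1 -0.42 ± 0.13 and 0.31 (adjusted p from 5.23e-05 to 0.00833 in the authors' deposited tables). This was not particular to cell cycle genes. The neurogenic progenitor genes Dll3 (1.39 ± 0.29 and -0.46) and Insm1 (0.79 ± 0.18 and -0.40) also changed sign. Sfrp2 (1.08 ± 0.29 and 0.96) and Cdca7 (0.87 ± 0.25 and 0.38) were called in both with the same sign. The share over all genes was not counted.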
